A study of Mus musculus with 2 samples.

Results

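The RNA of small intestinal organoids kept with EGF was compared between 2 culture experiments of the same protocol. All libraries labelled EGF were taken from the deposited sheet, 3 of experiment 1 (Exp1) and 3 of experiment 2 (Exp2), 6 of the 18 libraries of the series. The other 12 received EREG or NRG1 in place of EGF, and were used to estimate the spread and to repeat the same comparison. Crypts of wild-type C57BL/6J mice were plated in Matrigel and grown for 3 days in medium with EGF, NOGGIN and RSPO1, which also held N-acetylcysteine and, at first, the ROCK inhibitor Y-27632. In both groups EGF was then withdrawn for 24 h and added again at 100 ng/ml for 24 h before the RNA was isolated. The 2 groups therefore had the same genotype, strain, ligand, dose and time by their labels. The crypts of the 2 experiments came from different mice, so animal, day of culture and experiment cannot be told apart. The 3 libraries of an experiment are called replicates, with no word on whether they were grown apart. The p-values therefore take only their spread as error, and part of it may be technical. The study took crypts from adult mice of both sexes, a few months old, without saying which sex or age the mouse of either experiment had, and genes of the X and Y chromosomes were left out.

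Intestinal organoids are three-dimensional cultures of pure epithelium. Their buds resemble crypts, with Lgr5-positive stem cells kept by Wnt signals between Paneth cells, and their walls hold the absorptive enterocytes, goblet, enteroendocrine and tuft cells that arise from the stem cells. After injury, and in the fetal gut, the epithelium uses another program, in which the stem cell genes are low and genes such as *Ly6a*, the annexins and *Areg* are high, and freshly plated crypts pass through a state of this kind while they build new buds. EGF, through its receptor and the ERK kinases, drives the growth of the stem and progenitor cells.

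The libraries held between 1714515 and 1891243 UMIs (unique molecular identifiers, 1 per RNA molecule counted) in Exp1 and between 1486253 and 1582696 in Exp2, with 12820 to 13024 and 12536 to 12592 genes detected. Both groups expressed the markers of the labelled tissue: *Epcam*, the epithelial surface gene, had 1338 CPM (counts scaled by the library total) in Exp1 and 1652 in Exp2. *Lyz1* of Paneth cells had 4442 and 5203 CPM, and *Sis* of enterocytes 551.9 and 692.3 CPM. The other enterocyte markers were lower in Exp2: *Alpi* had 80.75 and 51.9 CPM, *Fabp1* 5577 and 4841, and *Vil1* 152.3 and 129.6. Of the other Paneth markers, *Ang4* was higher (1216 and 1688 CPM), and *Mmp7* (353.7 and 236) and *Defa24* (22360 and 20820) were lower. Mitochondrial RNAs took 0.979 to 1.20% of the UMIs in Exp1 and 0.596 to 0.604% in Exp2. The nuclear RNA *Malat1* took 0.0280 to 0.0404% in Exp1 and 0.0774 to 0.0844% in Exp2. These shares did not overlap between the experiments, and their part in the results was not tested. Libraries with the number 2 were sequenced in a pool of their own (S4) and those with the numbers 1 and 3 together in another (S3), so each experiment had libraries in both pools.

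Of 11794 genes tested, 3967 differed between the experiments (33.6%), 2027 higher in Exp2 (17.2%) and 1940 lower (16.4%). The counts of list members below stand beside these 2 shares, and a count near its share is no result about the list. A gene was called at a Benjamini-Hochberg adjusted p under 0.1 in edgeR's quasi-likelihood test, fitted to all 18 libraries. Log2 fold changes are of Exp2 over Exp1 and stand with an approximate standard error (SE). This SE was calculated back from the test, as the size of the log2 fold change over the square root of its F statistic. Normalized counts are UMI counts scaled by TMM to a common library size. Most genes named below were chosen by the size of their change or their adjusted p in this comparison. That their libraries do not overlap follows in part from this choice and is no further support. The share without overlap over all genes tested is not given here. The median size of the log2 fold change among called genes was 0.77, and 1343 genes changed by at least 1 on the log2 scale. Over all genes tested the median log2 fold change was -0.014. With library totals as the only scaling this median was -0.11 and the calls were 1635 higher and 2470 lower, so that 39.8% of them were higher against 51.1% with TMM. With only the libraries of pool S3, which leaves 2 EGF libraries an experiment, 2423 genes passed. On a principal component analysis of the 500 most variable genes over the 6 libraries, the first component held 85.4% of the variance and separated the experiments, while the second held 6.21% and separated the pools.

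**Figure D1:**
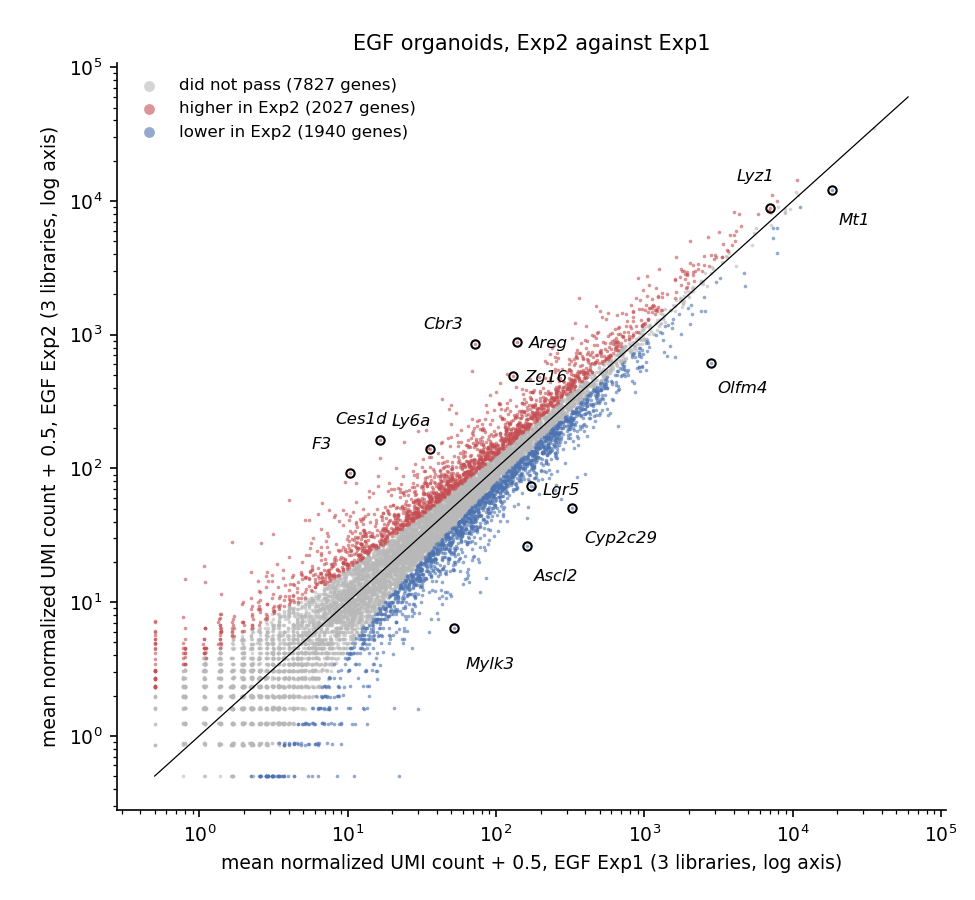
Mean normalized UMI count of each of the 11794 genes tested, plus 0.5, in the 3 EGF libraries of Exp1 (x axis, log scale) and of Exp2 (y axis, log scale), with genes higher in Exp2 in red, lower in blue and not called in grey; the line marks equal values. *Cbr3*, *Ces1d* and *F3* lie far above the line and *Ascl2*, *Olfm4* and *Mylk3* far below it, while the abundant genes *Mt1* and *Lyz1* lie close to it.

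The largest rises, among called genes with a mean of at least 20 normalized counts and no overlap between the groups, included several enzymes that act on foreign or reactive compounds. *Ces1g*, a carboxylesterase gene at chr8:93302369-93337308 of GRCm38, had 1.82, 7.11 and 1.67 normalized counts in Exp1 and 68, 44.2 and 60 in Exp2 (log2 fold change 4.0 ± 0.38, edgeR adjusted p = 9.93e-16). *Ces1d*, of the same gene cluster (chr8:93166068-93197838) had 15.5, 18.7 and 14.2 normalized counts in Exp1 and 183, 144 and 165 in Exp2 (log2 fold change 3.34 ± 0.23, edgeR adjusted p = 4.80e-24). *Cbr3*, the gene of a carbonyl reductase (chr16:93683215-93690990), had 52.8, 82.7 and 79.5 normalized counts in Exp1 and 867, 902 and 768 in Exp2, which was 11.7-fold higher (log2 fold change 3.55 ± 0.38, edgeR adjusted p = 2.48e-05). All 3 genes were at least several times higher in each Exp2 library than in any Exp1 library. *Akr1b8*, an aldo-keto reductase gene, had 45.5, 37.3 and 45.2 normalized counts in Exp1 and 349.8, 374 and 261 in Exp2 (log2 fold change 2.93 ± 0.19, edgeR adjusted p = 9.35e-14). *F3*, the gene of tissue factor, which starts blood clotting, had 5.46, 11.6 and 12.6 normalized counts in Exp1 and 89.9, 90.6 and 96.2 in Exp2 (log2 fold change 3.20 ± 0.27, edgeR adjusted p = 7.14e-19). *Alox12b*, which encodes a lipoxygenase of the skin barrier, had 25.5, 21.3 and 13.4 normalized counts in Exp1 and 208, 231 and 206 in Exp2 (log2 fold change 3.43 ± 0.41, edgeR adjusted p = 6.62e-05). No Exp1 library of these genes came near the lowest Exp2 library.

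The 9 other genes of the largest rises had log2 fold changes between 2.76 and 3.12. *Duoxa2*, needed for the peroxide-producing oxidase Duox2, was the lowest of them and *C1rl*, a complement-type protease gene, the highest. Between them lay the Ly6 family gene *Ly6d* (3.08), the interferon-induced gene *Oasl1* (3.10), *Ndufa4l2* (3.02) and *Adm* (2.83), both known as hypoxia-induced genes, the myosin light chain gene *Myl9* (2.91), the cilium gene *Tmem237* (2.96) and *Gm10639* (2.91). The last shares 34.1% of its 3′ end (windows of 61 nucleotides in the last 500) with glutathione transferase genes, so that its count is uncertain. *Tmem237* was the most abundant of the 9, with 62.8, 84.4 and 57.8 normalized counts in Exp1 and 577, 472 and 549 in Exp2.

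Among the 15 largest falls, *Mylk3*, the gene of a myosin light chain kinase known from the heart, had 39.1, 48 and 67.8 normalized counts in Exp1 and 2.19, 8.63 and 6.79 in Exp2 (log2 fold change -3.10 ± 0.36, edgeR adjusted p = 4.55e-12). *Cyp2c29*, a cytochrome P450 gene, had 259, 392 and 326 normalized counts in Exp1 and 39.5, 57.2 and 53.2 in Exp2 (log2 fold change -2.70 ± 0.16, edgeR adjusted p = 1.05e-26). *Cyp2b10*, another, had 83.7, 53.3 and 57.8 normalized counts in Exp1 and 15.3, 11.9 and 13.6 in Exp2 (log2 fold change -2.24 ± 0.27, edgeR adjusted p = 2.83e-11). *Sfrp5*, which encodes a secreted protein that binds Wnt ligands, had 29.1, 36.4 and 39.3 normalized counts in Exp1 and 0, 8.63 and 7.92 in Exp2 (log2 fold change -2.71 ± 0.44, edgeR adjusted p = 6.40e-07). Its first Exp2 library had no count and the others few. *Tubb2b*, a beta-tubulin gene, had 87.3, 86.2 and 83.7 normalized counts in Exp1 and 11, 17.3 and 15.8 in Exp2 (log2 fold change -2.54 ± 0.26, edgeR adjusted p = 1.07e-14). *Dio1*, the gene of a thyroid hormone deiodinase, had 41.9, 32 and 33.5 normalized counts in Exp1 and 2.19, 6.47 and 12.4 in Exp2 (log2 fold change -2.33 ± 0.38, edgeR adjusted p = 4.56e-07). The stem cell genes *Ascl2* and *Olfm4* were also among the 15, as was *Defa3*, which shares 89.4% of its 3′ end with other alpha-defensin genes and is uncertain. The remaining falls were *Ccnb1ip1* (-2.74, with 21% of its 3′ end shared), *B9d1* (-2.51), *Cfap36* (-2.33), *Agr3* (-2.20), *Tfap4* (-2.19) and the histone gene *Hist1h1b* (-2.17), with log2 fold changes in parentheses.

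Stem cell genes were lower in Exp2. Of 22 crypt base stem cell genes tested, 20 were lower and 0 higher, and the median log2 fold change was -1.28. *Lgr5*, the R-spondin receptor gene that marks these cells, had 179, 172 and 165 normalized counts in Exp1 and 70.2, 70.1 and 80.3 in Exp2 (log2 fold change -1.23 ± 0.16, edgeR adjusted p = 2.21e-10). *Olfm4*, which encodes a secreted glycoprotein of the same cells (chr14:79984081-80023139), had 2557, 3092 and 2854 normalized counts in Exp1 and 624, 585 and 618 in Exp2 (log2 fold change -2.21 ± 0.098, edgeR adjusted p = 2.37e-37). For both genes every Exp2 library lay far below every Exp1 library. *Ascl2*, the gene of the transcription factor that sets stem cell fate, had 169, 131 and 188 normalized counts in Exp1 and 30.7, 14 and 32.8 in Exp2 (log2 fold change -2.65 ± 0.20, edgeR adjusted p = 1.64e-21), and Exp2 replicate 2 was the lowest. *Rgmb*, a BMP co-receptor gene, had 143, 153 and 192 normalized counts in Exp1 and 39.5, 50.7 and 36.2 in Exp2 (log2 fold change -1.94 ± 0.18, edgeR adjusted p = 1.68e-16), without overlap. Every Exp2 library of these genes again lay below every Exp1 library. *Sox9*, a transcription factor gene of stem and Paneth cells, had 254, 206 and 220.1 normalized counts in Exp1 and 95.4, 72.3 and 83.7 in Exp2 (log2 fold change -1.44 ± 0.14, edgeR adjusted p = 4.09e-15). In bulk RNA, fewer cells of a type and less RNA of the gene in each cell cannot be told apart.

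Wnt target genes were lower as well, with 10 of 15 tested lower, 0 higher and a median log2 fold change of -0.75. *Axin2*, which encodes a feedback inhibitor of the pathway, had 73.7, 61.3 and 72.8 normalized counts in Exp1 and 21.9, 11.9 and 29.4 in Exp2 (log2 fold change -1.72 ± 0.26, edgeR adjusted p = 3.67e-08). *Sp5*, a transcription factor gene, had 20.9, 21.3 and 26.8 normalized counts in Exp1 and 3.29, 3.24 and 6.79 in Exp2 (log2 fold change -2.36 ± 0.45, edgeR adjusted p = 1.40e-05). Wnt and stem cell lists share *Ascl2*, *Axin2*, *Cd44*, *Ephb2*, *Rnf43*, *Sox9* and *Znrf3*, so the counts are not separate. Among Notch and lineage choice genes, 6 of 15 were lower and 1 higher (median -0.073), and without Exp2 replicate 3 only 3 were lower. The receptor gene *Notch1* had 40, 34.7 and 32.6 normalized counts in Exp1 and 16.4, 12.9 and 15.8 in Exp2 (log2 fold change -1.24 ± 0.30, edgeR adjusted p = 6.68e-04). *Lfng*, which encodes a glycosyltransferase that modifies Notch, had 10.9, 20.4 and 14.2 normalized counts in Exp1 and 3.29, 3.24 and 0 in Exp2 (log2 fold change -2.71 ± 0.59, edgeR adjusted p = 1.39e-04). *Hes1*, the repressor gene that Notch induces, was the 1 higher member, with 201, 159 and 175 normalized counts in Exp1 and 256, 229.8 and 258 in Exp2 (log2 fold change 0.48 ± 0.13, edgeR adjusted p = 0.00219). The receptor and its target thus differed in opposite directions, and no overlap was seen in either.

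Part of the proliferation genes was lower in Exp2, and none higher. Of 30 proliferation genes, 15 were lower, 0 higher and 15 did not pass (median -0.27). *Mcm2*, a subunit of the replicative helicase, had 154, 188 and 156 normalized counts in Exp1 and 98.7, 78.8 and 88.2 in Exp2 (log2 fold change -0.90 ± 0.16, edgeR adjusted p = 2.08e-06). *Tyms*, which encodes thymidylate synthase, had 242, 266 and 238 normalized counts in Exp1 and 116, 135 and 136 in Exp2 (log2 fold change -0.95 ± 0.13, edgeR adjusted p = 2.37e-09). The mitotic gene *Birc5* had 324, 301 and 322 normalized counts in Exp1 and 195, 198 and 200.2 in Exp2 (log2 fold change -0.68 ± 0.12, edgeR adjusted p = 1.47e-06). All 3 genes were lower in each Exp2 library. *Mki67*, the usual marker of dividing cells, had 258, 294 and 207 normalized counts in Exp1 and 189.7, 256 and 201 in Exp2, and its groups overlapped (log2 fold change -0.23 ± 0.12, edgeR adjusted p = 0.169). It passed with library totals as the only scaling (log2 fold change -0.33), with the EGF libraries alone and a replicate term (-0.22) and without Exp1 replicate 3 (-0.35). *Tuba1b* had 766, 764 and 658 normalized counts in Exp1 and 485, 537 and 496 in Exp2 (log2 fold change -0.53 ± 0.097, edgeR adjusted p = 6.51e-06) and shares 50.9% of its 3′ end with other tubulin genes.

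**Figure D2:**
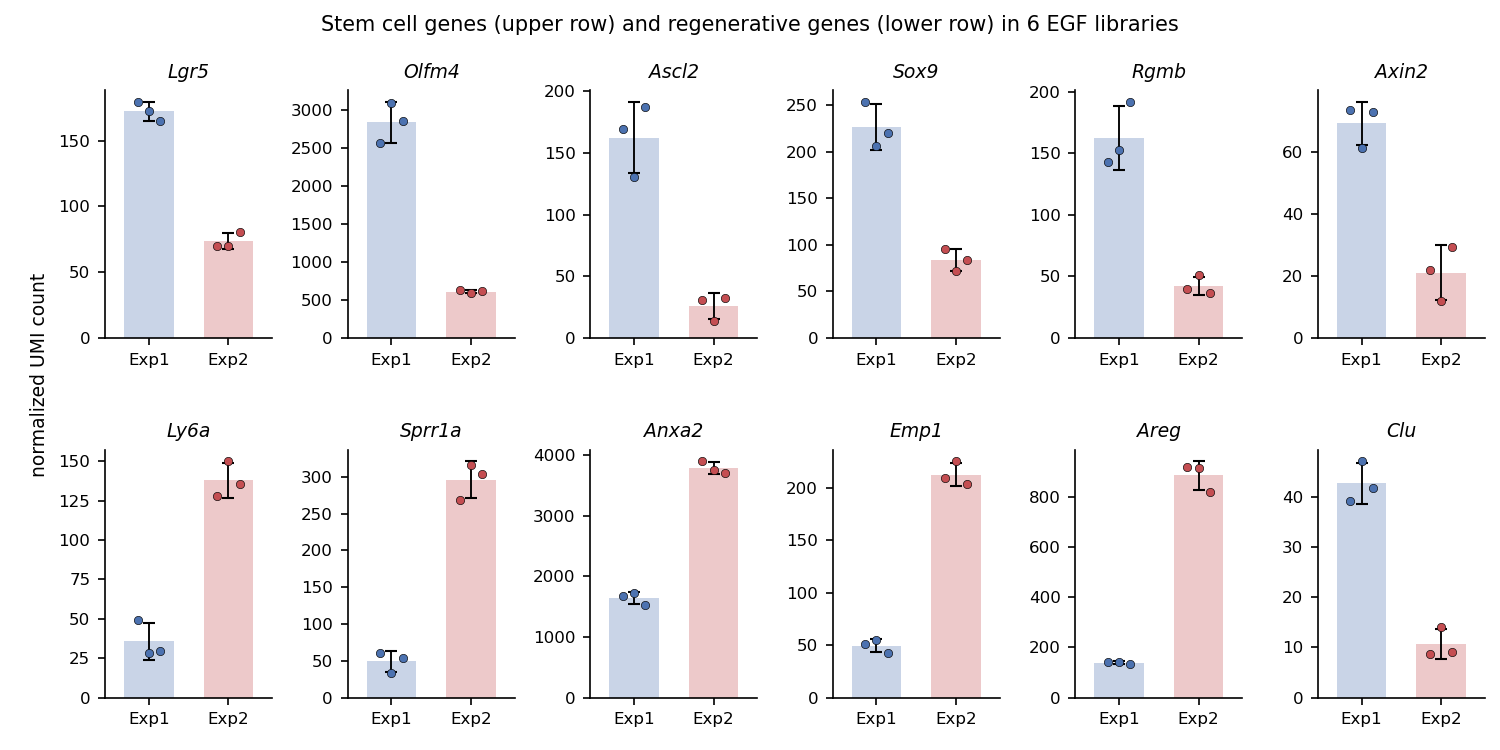
Normalized UMI counts (y axis, linear from 0) of stem cell and Wnt genes (upper row) and regenerative genes (lower row) in EGF libraries of Exp1 (blue) and Exp2 (red); points are libraries, bars the mean and error bars the SD of 3 libraries. All 6 genes of the upper row and *Clu* were lower in each Exp2 library than in each Exp1 library, and the other 5 genes of the lower row were higher.

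Paneth cell genes did not move together. Of 22 tested, 7 were higher and 10 lower, with a median of -0.23. The higher members include the stress gene *Nupr1*, which is also in the ATF4 list and is described there. *Lyz1*, the lysozyme gene, had 6736, 7170 and 7171 normalized counts in Exp1 and 8859, 8884 and 8654 in Exp2 (log2 fold change 0.32 ± 0.085, edgeR adjusted p = 0.00179), a small rise without overlap, with 11.4% of its 3′ end shared with *Lyz2*. *Defa24*, an alpha-defensin gene and the most abundant of those named, had 33890, 34720 and 37400 normalized counts in Exp1 and 37880, 32340 and 35480 in Exp2, and its groups overlapped (log2 fold change -0.0084 ± 0.082, edgeR adjusted p = 0.958). It shares 18.1% of its 3′ end with *Defa30*. *Mptx2*, which encodes a mucosal pentraxin, had 287, 459 and 308 normalized counts in Exp1 and 96.5, 85.2 and 74.7 in Exp2 (log2 fold change -2.03 ± 0.15, edgeR adjusted p = 4.57e-17). Each Exp2 library was below every Exp1 library for the pentraxin gene. *Mmp7*, the protease that activates the defensins, had 549, 559.9 and 570 normalized counts in Exp1 and 366, 448 and 382 in Exp2 (log2 fold change -0.49 ± 0.10, edgeR adjusted p = 4.70e-05). The antimicrobial ribonuclease gene *Ang4* had 2041, 1960 and 1786 normalized counts in Exp1 and 2773, 3054 and 2730 in Exp2 (log2 fold change 0.57 ± 0.093, edgeR adjusted p = 7.00e-07). The lipase gene *Pnliprp2* had 255, 230.2 and 209 normalized counts in Exp1 and 506, 469 and 456 in Exp2 (log2 fold change 1.05 ± 0.11, edgeR adjusted p = 2.00e-13). Lysozyme, *Ang4* and *Pnliprp2* were thus higher in Exp2 and *Mptx2* and *Mmp7* lower.

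Of 21 goblet cell genes, 10 were higher and 3 lower (median 0.34), or 1 lower without replicate 1 or 2 of either experiment. *Zg16*, the gene of a lectin of the mucus layer, had 126, 129 and 131 normalized counts in Exp1 and 485, 517 and 469 in Exp2 (log2 fold change 1.92 ± 0.12, edgeR adjusted p = 5.57e-27). *Tff3*, the trefoil peptide gene, had 2899, 2449 and 2738 normalized counts in Exp1 and 5756, 5009 and 5474 in Exp2 (log2 fold change 1.01 ± 0.087, edgeR adjusted p = 5.15e-18). Both secreted products were higher in each Exp2 library. *Agr2*, a disulfide isomerase gene needed for mucin assembly, had 1789, 1728 and 1897 normalized counts in Exp1 and 2976, 2962 and 3109 in Exp2 (log2 fold change 0.74 ± 0.086, edgeR adjusted p = 4.34e-12). The membrane mucin gene *Muc13* had 686, 778 and 660.3 normalized counts in Exp1 and 1434, 1483 and 1409 in Exp2 (log2 fold change 1.03 ± 0.10, edgeR adjusted p = 6.22e-14). In all 4 the 2 experiments were apart. The gel-forming mucin gene *Muc2*, the defining gene of the type, went the other way: it had 60, 57.8 and 47.7 normalized counts in Exp1 and 32.9, 38.9 and 43 in Exp2 (log2 fold change -0.53 ± 0.23, edgeR adjusted p = 0.0762). That call was lost without Exp1 replicate 1 or 2, without Exp2 replicate 1 or 2, with pool S3 alone and in DESeq2 (largest edgeR adjusted p = 0.284).

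Enteroendocrine genes were mostly higher in Exp2, with 14 of 24 tested higher, 1 lower and a median of 0.77. *Gcg*, the proglucagon gene, had 393, 368 and 349 normalized counts in Exp1 and 786, 664 and 739.8 in Exp2 (log2 fold change 0.98 ± 0.10, edgeR adjusted p = 2.92e-13). *Gip*, the gene of an incretin hormone, had 373, 361 and 398 normalized counts in Exp1 and 734, 673 and 658 in Exp2 (log2 fold change 0.86 ± 0.10, edgeR adjusted p = 1.04e-11). *Nts*, which encodes neurotensin, had 79.2, 95.1 and 59.4 normalized counts in Exp1 and 208, 183 and 202 in Exp2 (log2 fold change 1.35 ± 0.15, edgeR adjusted p = 1.14e-12). The 3 hormone genes were thus higher in each Exp2 library. *Reg4*, of the Reg lectin family, had 875, 854 and 781 normalized counts in Exp1 and 1548, 1500 and 1435 in Exp2 (log2 fold change 0.84 ± 0.093, edgeR adjusted p = 8.01e-13). *Chga*, the chromogranin gene that defines the type, had 84.6, 92.4 and 88.7 normalized counts in Exp1 and 121, 122 and 123 in Exp2 (log2 fold change 0.46 ± 0.16, edgeR adjusted p = 0.0213), and did not pass with pool S3 alone (edgeR adjusted p = 0.109). Of 13 tuft cell genes tested, 1 was higher, and several were near the limit of detection. *Cd24a* was not, with 644, 506 and 608 normalized counts in Exp1 and 482, 516 and 550 in Exp2, with overlap (log2 fold change -0.18 ± 0.10, edgeR adjusted p = 0.183). It passed with library totals as the only scaling and without Exp1 replicate 2. *Dclk1*, the marker of tuft cells, had 0, 7.11 and 4.18 normalized counts in Exp1 and 7.67, 4.32 and 11.3 in Exp2, with overlap (log2 fold change 1.09 ± 0.65, edgeR adjusted p = 0.22), and passed with pool S3 alone and without Exp2 replicate 2.

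Genes of absorptive enterocytes were mixed. Of 27 brush border genes, 8 were higher and 4 lower (median 0.15). The share lower was close to the 16.4% over all genes tested. *Slc5a1*, the glucose transporter gene, had 449.5, 421 and 354 normalized counts in Exp1 and 666, 658 and 664 in Exp2 (log2 fold change 0.71 ± 0.10, edgeR adjusted p = 1.04e-08). The fructose transporter gene *Slc2a5*, in contrast, had 78.2, 101 and 85.4 normalized counts in Exp1 and 27.4, 28.1 and 24.9 in Exp2 (log2 fold change -1.71 ± 0.22, edgeR adjusted p = 1.35e-10). The amino acid transporter gene *Slc6a19* was lower as well, with 90.1, 142 and 103 normalized counts in Exp1 and 47.1, 47.5 and 39.6 in Exp2 (log2 fold change -1.31 ± 0.20, edgeR adjusted p = 5.18e-08). The genes of the latter transporters were thus lower and that of the glucose transporter higher. *Sis*, which encodes sucrase-isomaltase, had 828, 908 and 883 normalized counts in Exp1 and 1316, 1065 and 1132 in Exp2 (log2 fold change 0.42 ± 0.11, edgeR adjusted p = 0.00193). *Alpi*, the intestinal phosphatase gene of mature villus cells, had 125, 128 and 131 normalized counts in Exp1 and 88.8, 86.3 and 88.2 in Exp2 (log2 fold change -0.54 ± 0.15, edgeR adjusted p = 0.00456). *Krt20*, a keratin gene of differentiated cells, had 264, 275 and 221 normalized counts in Exp1 and 428, 414 and 381 in Exp2 (log2 fold change 0.69 ± 0.11, edgeR adjusted p = 3.11e-07). The glucose transporter and sucrase-isomaltase were thus higher in Exp2, and the fructose and amino acid transporters and the phosphatase lower.

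Of 22 lipid absorption genes, 9 were higher and 2 lower (median 0.25). *Apoa1*, an apolipoprotein gene, had 1177, 1273 and 1258 normalized counts in Exp1 and 1878, 2041 and 1843 in Exp2 (log2 fold change 0.64 ± 0.09, edgeR adjusted p = 7.34e-09). *Apoc3*, another, had 343, 308 and 278 normalized counts in Exp1 and 580, 529 and 538 in Exp2 (log2 fold change 0.83 ± 0.10, edgeR adjusted p = 1.13e-10). *Cd36*, the fatty acid receptor gene of the proximal gut, had 11.8, 16 and 10.9 normalized counts in Exp1 and 1.1, 1.08 and 0 in Exp2, which is 44 UMIs against 2 (ratio 0.0534, 95% exact interval 0.00627 to 0.205 for counting error only). Among genes of proximal small intestine identity 7 of 15 were higher and 5 lower (median 0.16). *Apoc3*, and *Ces1f* and *Gstm3* described below, are of this proximal list and were higher, while *Cyp2b10* of the same list was lower. Among genes of distal identity 7 of 16 were higher and 0 lower (median 0.24). *Muc3*, a membrane mucin gene of the distal list, had 45.5, 60.4 and 34.3 normalized counts in Exp1 and 170, 199.6 and 135 in Exp2 (log2 fold change 1.85 ± 0.25, edgeR adjusted p = 6.28e-06). *Slc51b*, which encodes a subunit of the bile acid exporter of the ileum, had 34.6, 38.2 and 28.5 normalized counts in Exp1 and 82.2, 68 and 70.1 in Exp2 (log2 fold change 1.12 ± 0.21, edgeR adjusted p = 6.06e-06). *Clec2h*, a lectin-type receptor gene, had 80.1, 75.5 and 66.1 normalized counts in Exp1 and 229, 194 and 202 in Exp2 (log2 fold change 1.50 ± 0.14, edgeR adjusted p = 1.30e-15). None of these genes overlapped between the experiments.

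Genes of the fetal and regenerative epithelium were higher in Exp2. Of 32 tested, 26 were higher and 1 lower, and the median log2 fold change was 1.25. This list shares members with others below, among them *Ereg* with the EGF family list and *Sprr2a3* with the keratin list, so the counts are not separate. *Ly6a* (Sca-1), the surface marker of regenerating crypts, had 49.1, 28.4 and 29.3 normalized counts in Exp1 and 128, 150 and 136 in Exp2 (log2 fold change 1.96 ± 0.20, edgeR adjusted p = 1.24e-12). *Sprr1a*, which encodes a small proline-rich protein of the cornified envelope, had 61, 32.9 and 53.6 normalized counts in Exp1 and 269, 316 and 304 in Exp2 (log2 fold change 2.59 ± 0.20, edgeR adjusted p = 1.69e-11). *Emp1*, a membrane protein gene, had 51, 55.1 and 42.7 normalized counts in Exp1 and 209, 226 and 204 in Exp2 (log2 fold change 2.10 ± 0.17, edgeR adjusted p = 2.07e-16). The 3 genes did not overlap between the experiments. *S100a14*, of the S100 family of calcium-binding proteins, had 30, 38.2 and 35.1 normalized counts in Exp1 and 154, 133 and 136 in Exp2 (log2 fold change 2.02 ± 0.18, edgeR adjusted p = 9.72e-17). Each of these genes was higher in every Exp2 library. Annexins bind membranes in the presence of calcium. *Anxa2*, the most abundant annexin gene named, had 1679, 1728 and 1527 normalized counts in Exp1 and 3901, 3757 and 3705 in Exp2 (log2 fold change 1.21 ± 0.09, edgeR adjusted p = 7.35e-22). *Anxa3* had 77.3, 63.1 and 51.9 normalized counts in Exp1 and 198, 229.8 and 192 in Exp2 (log2 fold change 1.70 ± 0.16, edgeR adjusted p = 5.43e-16). *Anxa1* was low, with 6.37, 13.3 and 10 normalized counts in Exp1 and 20.8, 23.7 and 26 in Exp2 (log2 fold change 1.25 ± 0.35, edgeR adjusted p = 0.00398). The named annexin genes were all higher in each Exp2 library. *Sprr2a3* had 162, 166 and 119.7 normalized counts in Exp1 and 368, 437 and 369.9 in Exp2 (log2 fold change 1.40 ± 0.12, edgeR adjusted p = 2.83e-18) and shares 57.2% of its 3′ end with other Sprr2 genes.

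*Clu*, the clusterin gene that marks revival stem cells after irradiation in mice, was the 1 lower member of the regenerative list. It had 39.1, 47.1 and 41.9 normalized counts in Exp1 and 8.77, 14 and 9.05 in Exp2 (log2 fold change -2.00 ± 0.31, edgeR adjusted p = 8.86e-08), without overlap. Of 12 keratin and squamous genes, 10 were higher and 0 lower (median 0.85), though 11 others did not pass the filter on low counts. *Krt19*, a simple epithelial keratin gene, had 3419, 3013 and 3083 normalized counts in Exp1 and 5568, 6135 and 6010 in Exp2 (log2 fold change 0.90 ± 0.088, edgeR adjusted p = 2.70e-15). *Sfn*, the stratifin gene of squamous cells, had 89.2, 86.2 and 97.9 normalized counts in Exp1 and 218, 224 and 200.2 in Exp2 (log2 fold change 1.23 ± 0.14, edgeR adjusted p = 2.08e-12). Of 19 YAP and TEAD targets, 5 were higher, 2 lower and 12 did not pass (median 0.51). Over all genes tested 17.2% were higher and 16.4% lower. Only 1 of the targets was lower without Exp1 replicate 2 or any 1 library of Exp2. Beside *F3* and *Anxa3*, the stress gene *Gadd45b* was higher, with 20.9, 24.9 and 18.4 normalized counts in Exp1 and 75.7, 61.5 and 74.7 in Exp2 (log2 fold change 1.71 ± 0.24, edgeR adjusted p = 2.68e-09). *Ccn1*, the usual readout of YAP activity, had 10.9, 4.44 and 10.9 normalized counts in Exp1 and 7.67, 12.9 and 12.4 in Exp2, and its groups overlapped (log2 fold change 0.32 ± 0.44, edgeR adjusted p = 0.639). *Fstl1*, a secreted glycoprotein gene, had 10, 11.6 and 17.6 normalized counts in Exp1 and 0, 1.08 and 2.26 in Exp2, which is 45 UMIs against 3 (ratio 0.0783, 95% exact interval 0.0156 to 0.244 for counting error only).

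Genes of matrix adhesion and wound closure were higher in 8 of 16 cases and lower in 3. *Plaur*, the urokinase receptor gene, had 13.7, 10.7 and 3.35 normalized counts in Exp1 and 45, 48.6 and 41.9 in Exp2 (log2 fold change 2.30 ± 0.31, edgeR adjusted p = 8.95e-10). The integrin gene *Itga6*, a laminin receptor subunit, in contrast had 222, 188 and 188 normalized counts in Exp1 and 141, 93.9 and 121 in Exp2 (log2 fold change -0.75 ± 0.14, edgeR adjusted p = 1.04e-05). Among actin cytoskeleton genes 12 of 25 were higher and 4 lower (median 0.42). Without replicate 1 of either experiment or Exp2 replicate 2, 2 were lower. *Tagln2*, a transgelin gene, had 530.5, 475 and 458 normalized counts in Exp1 and 993, 1162 and 985 in Exp2 (log2 fold change 1.10 ± 0.10, edgeR adjusted p = 1.80e-16). *Lmna*, the gene of the nuclear lamins A and C, had 174, 152 and 139 normalized counts in Exp1 and 302, 287 and 327 in Exp2 (log2 fold change 0.98 ± 0.12, edgeR adjusted p = 7.15e-11). The calponin genes went apart. *Cnn2* had 49.1, 35.5 and 23.4 normalized counts in Exp1 and 123, 132 and 109.7 in Exp2 (log2 fold change 1.77 ± 0.20, edgeR adjusted p = 1.78e-11). *Cnn3* had 268, 283 and 292 normalized counts in Exp1 and 128, 175 and 115 in Exp2 (log2 fold change -1.01 ± 0.13, edgeR adjusted p = 5.62e-10). *Cnn3* shares 11.6% of its 3′ end with other sequences.

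**Figure D3:**
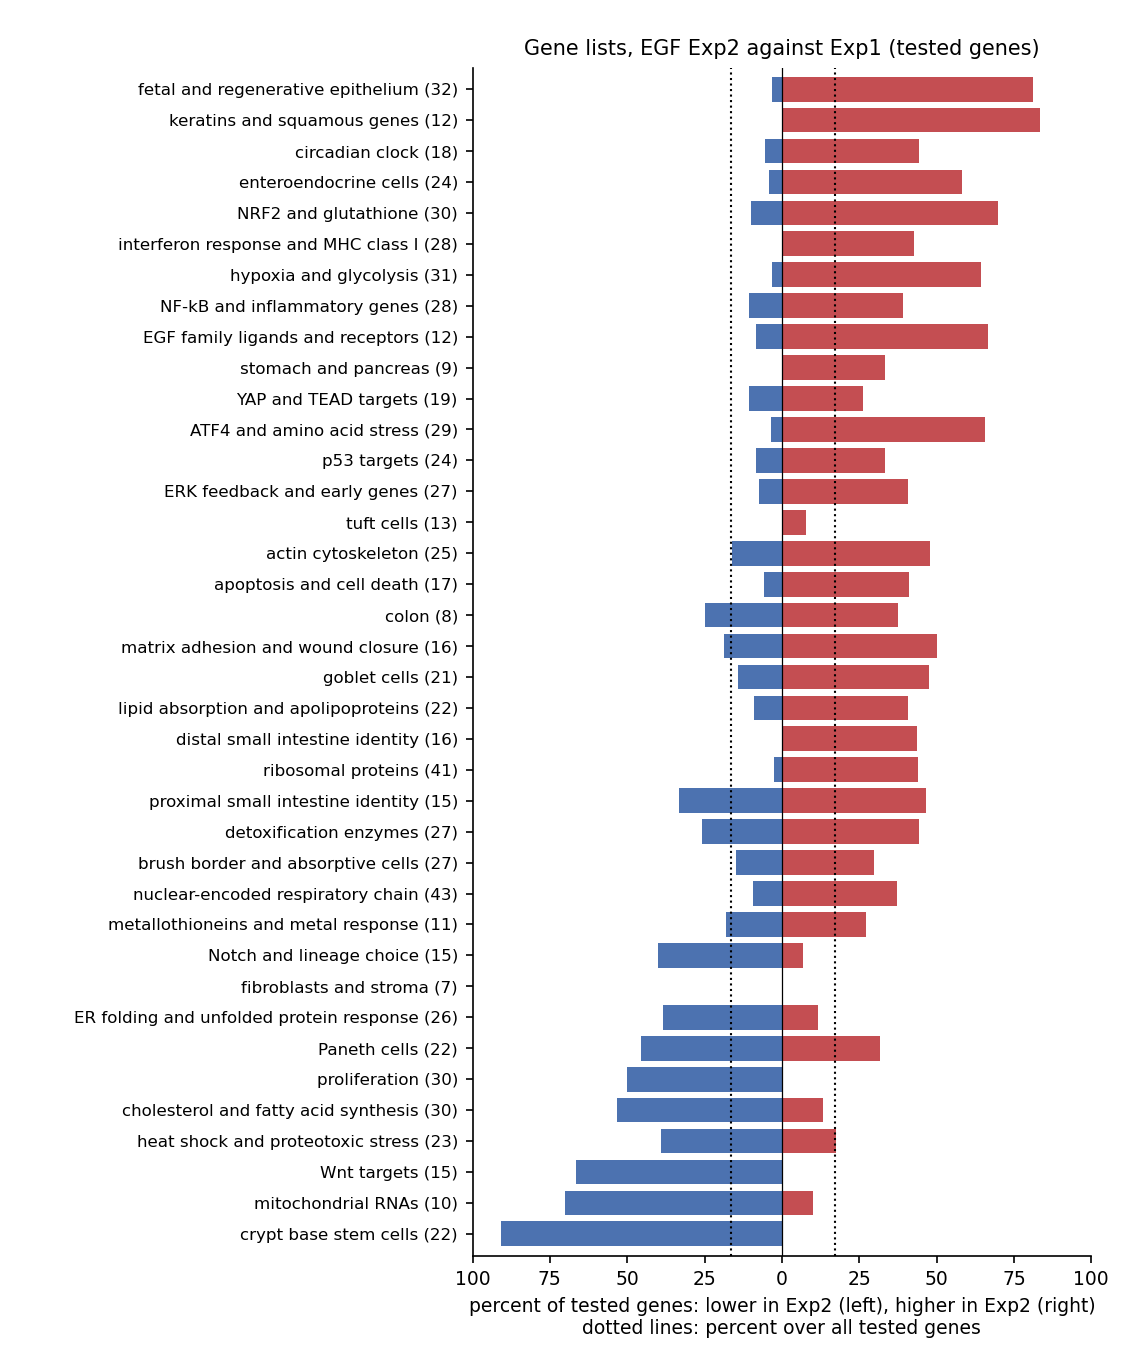
Percent of the tested genes of each list that were higher in Exp2 (right, red) or lower (left, blue) among EGF libraries, with the number tested in parentheses and lists in the order of their median log2 fold change; lists with fewer than 7 genes tested are not drawn. The dotted lines mark 17.2% higher and 16.4% lower over all genes tested, and the regenerative list (26 of 32 higher) and the stem cell list (20 of 22 lower) lie at opposite ends.

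The organoids of both experiments received EGF, yet their own EGF family ligand genes differed. Of 12 ligand and receptor genes tested, 8 were higher and 1 lower (median 0.62). *Areg*, which encodes amphiregulin (chr5:91139599-91148432), had 141, 142 and 134 normalized counts in Exp1 and 919, 916 and 820.1 in Exp2, 6.35-fold higher in Exp2 (log2 fold change 2.67 ± 0.15, edgeR adjusted p = 3.32e-14). *Btc* (betacellulin) had 86.4, 93.3 and 61.9 normalized counts in Exp1 and 208, 172 and 213 in Exp2 (log2 fold change 1.30 ± 0.15, edgeR adjusted p = 3.41e-12). *Hbegf* (heparin-binding EGF) had 64.6, 66.7 and 76.2 normalized counts in Exp1 and 201, 165 and 199 in Exp2 (log2 fold change 1.44 ± 0.20, edgeR adjusted p = 1.24e-06). The 3 genes were higher in every Exp2 library than in every Exp1 library. *Ereg* (epiregulin) was scarce, with 2.73, 0 and 0 normalized counts in Exp1 and 19.7, 4.32 and 9.05 in Exp2 (edgeR adjusted p = 9.25e-05). These were 3 UMIs against 30, a ratio of 11.8 with a 95% exact interval from 3.65 to 60.2 for counting error only.

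Among ERK feedback and early genes, 11 of 27 were higher and 2 lower (median 0.45), or 1 lower without Exp1 replicate 2 or Exp2 replicate 1 or 3. *Ier3*, an early gene of growth factor and stress signals, had 25.5, 24.9 and 20.1 normalized counts in Exp1 and 166, 113 and 192 in Exp2 (log2 fold change 2.73 ± 0.21, edgeR adjusted p = 5.66e-16). *Dusp4*, which encodes a phosphatase that turns off ERK, had 11.8, 11.6 and 10 normalized counts in Exp1 and 37.3, 36.7 and 33.9 in Exp2 (log2 fold change 1.68 ± 0.32, edgeR adjusted p = 1.18e-05). *Fos* and *Egr1* encode transcription factors that respond to growth factors and to the handling of cells. *Fos* had 10.9, 8 and 17.6 normalized counts in Exp1 and 27.4, 54 and 41.9 in Exp2 (log2 fold change 1.73 ± 0.31, edgeR adjusted p = 7.53e-06). *Egr1* had 39.1, 35.5 and 51 normalized counts in Exp1 and 104, 66.9 and 101 in Exp2 (log2 fold change 1.09 ± 0.20, edgeR adjusted p = 8.06e-06). For all 4 the lowest Exp2 library was above the highest Exp1 library, though Exp2 replicate 2 was the lowest of its group for *Egr1* and *Ier3* and the highest for *Fos*.

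NRF2 is the transcription factor that answers oxidants and electrophiles, by binding antioxidant response elements in front of genes of glutathione synthesis and detoxification. Of 30 NRF2 and glutathione genes, 21 were higher in Exp2 and 3 lower (median 0.76). *Gclm*, which encodes the modifier subunit of glutamate-cysteine ligase, the rate-limiting enzyme of glutathione synthesis, had 445, 466 and 422 normalized counts in Exp1 and 1028, 1035 and 903 in Exp2 (log2 fold change 1.15 ± 0.10, edgeR adjusted p = 1.72e-16). *Gsta4*, a glutathione transferase gene, had 1302, 1257 and 1197 normalized counts in Exp1 and 3010, 3298 and 3035 in Exp2 (log2 fold change 1.32 ± 0.093, edgeR adjusted p = 1.57e-22). *Gstm3*, another, had 532, 498 and 473 normalized counts in Exp1 and 1660, 1500 and 1340 in Exp2 (log2 fold change 1.58 ± 0.098, edgeR adjusted p = 1.38e-26). For each of these genes every Exp2 library lay above every Exp1 library. *Gstm1* had 874, 898 and 957 normalized counts in Exp1 and 2714, 2648 and 2561 in Exp2 (log2 fold change 1.53 ± 0.10, edgeR adjusted p = 4.15e-19) and shares 19.6% of its 3′ end with *Gstm3* and related sequences. The experiments did not overlap for *Gstm1* either. *Cbr3* and *Akr1b8* above are further genes of this kind, but they were chosen with no overlap as a condition. *Hmox1*, which encodes heme oxygenase and is a target of NRF2 and of heme, was near the limit of detection, with 0.91, 1.78 and 3.35 normalized counts in Exp1 and 3.29, 5.39 and 4.53 in Exp2, and did not pass (log2 fold change 1.12 ± 0.80, edgeR adjusted p = 0.321).

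The core of the antioxidant response element, TGACNNNGC on either strand, was searched in the RefSeq promoters of GRCm38.p6, which run from 250 bases before to 50 after the start of a gene. It was found in 9 of the 25 list genes with a promoter (36%) and in 12.4% of all 32851 promoters. The first share counts genes with a match in any of their promoters, and the second counts single promoters. The 2 shares are therefore not alike in measure and cannot be compared. Of the 9 genes, 6 were higher in Exp2 and 1 lower, beside 21 higher and 3 lower in the whole list of 30. All their matches are shown so that they can be compared, with the core in capitals, 5′ to 3′ on the strand that carries it; all but *Gclm* were chosen for the match, after their values were seen.
Gclm: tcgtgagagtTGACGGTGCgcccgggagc
Txnrd1: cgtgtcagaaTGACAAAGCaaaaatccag
Srxn1: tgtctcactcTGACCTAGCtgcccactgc
Nfe2l2: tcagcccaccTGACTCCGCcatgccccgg
Me1: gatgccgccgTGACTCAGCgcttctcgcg
Mgst1: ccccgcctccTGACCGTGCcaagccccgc
Prdx1: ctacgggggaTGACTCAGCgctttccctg
Pgd: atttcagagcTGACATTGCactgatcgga
Ugdh, first match: gcggagcccgTGACTTAGCtggagctgat
Ugdh, second match: ccgaactgtaTGACCACGCcccttgagga
The windows lie at chr3:122245413-122245441 for *Gclm*, chr10:82859104-82859132 for *Txnrd1* (a thioredoxin reductase), chr2:152105542-152105570 for *Srxn1* (sulfiredoxin), chr2:75704885-75704913 for *Nfe2l2* (NRF2 itself), chr9:86695902-86695930 for *Me1* (malic enzyme), chr6:138140461-138140489 for *Mgst1* (a membrane glutathione transferase), chr4:116685456-116685484 for *Prdx1* (a peroxiredoxin), chr4:149166061-149166089 for *Pgd* (phosphogluconate dehydrogenase) and chr5:65435956-65435984 for the first match of *Ugdh* (UDP-glucose dehydrogenase), all on the minus strand. The second match of *Ugdh* lies at chr5:65435918-65435946 on the plus strand. *Me1* and *Prdx1* hold the same 9 letters and differed in opposite directions. *Prdx1* had 2708, 3292 and 3070 normalized counts in Exp1 and 2489, 2506 and 2377 in Exp2 (log2 fold change -0.30 ± 0.09, edgeR adjusted p = 0.0081), with 12.3% of its 3′ end shared with pseudogenes. *Me1* had 27.3, 17.8 and 27.6 normalized counts in Exp1 and 42.8, 37.8 and 33.9 in Exp2 (log2 fold change 0.64 ± 0.26, edgeR adjusted p = 0.0522), with 29% shared. *Nfe2l2* had 419, 508 and 363 normalized counts in Exp1 and 750, 700.3 and 678 in Exp2 (log2 fold change 0.73 ± 0.10, edgeR adjusted p = 5.96e-09). *Txnrd1* had 438, 404 and 526 normalized counts in Exp1 and 946, 802 and 778 in Exp2 (log2 fold change 0.88 ± 0.099, edgeR adjusted p = 1.62e-12). All 4 were apart between the experiments. *Srxn1* had 31.9, 34.7 and 38.5 normalized counts in Exp1 and 60.3, 63.7 and 58.8 in Exp2 (log2 fold change 0.79 ± 0.21, edgeR adjusted p = 0.00215). *Mgst1* had 1693, 2019 and 2240 normalized counts in Exp1 and 2705, 2165 and 2464 in Exp2, and its groups overlapped (log2 fold change 0.30 ± 0.092, edgeR adjusted p = 0.00849). *Pgd* had 382, 409 and 408 normalized counts in Exp1 and 400.2, 428 and 397 in Exp2 (log2 fold change 0.033 ± 0.10, edgeR adjusted p = 0.86) and *Ugdh* had a log2 fold change of 0.14 ± 0.096, edgeR adjusted p = 0.313, and neither passed. A match of these letters is a description, not a binding site.

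Detoxification enzymes differed in both directions, with 12 of 27 higher and 7 lower (median 0.16). *Ces1f*, which lies between *Ces1d* and *Ces1g* on chromosome 8, had 95.5, 148 and 109.6 normalized counts in Exp1 and 542, 507 and 477 in Exp2 (log2 fold change 2.11 ± 0.14, edgeR adjusted p = 8.11e-17). The cytochrome P450 gene *Cyp3a13* had 96.5, 120 and 97.1 normalized counts in Exp1 and 348, 287 and 268 in Exp2 (log2 fold change 1.53 ± 0.14, edgeR adjusted p = 2.58e-17). The P450 genes *Cyp2c29* and *Cyp2b10* above went the other way. Among metal response genes, *Mt1*, which encodes the zinc- and copper-binding metallothionein 1, was lower, with 16890, 17610 and 20690 normalized counts in Exp1 and 12690, 10890 and 12650 in Exp2 (log2 fold change -0.60 ± 0.089, edgeR adjusted p = 6.01e-08). Of the list of 11, 3 were higher and 2 lower, and its median, 0.02, was -0.076 with library totals as the only scaling. Genes of iron handling were among both. *Tfrc*, the transferrin receptor that takes up iron, had 225, 237 and 241 normalized counts in Exp1 and 98.7, 88.5 and 82.6 in Exp2 (log2 fold change -1.38 ± 0.15, edgeR adjusted p = 9.65e-14). *Slc40a1*, the exporter ferroportin, in contrast had 25.5, 30.2 and 24.3 normalized counts in Exp1 and 59.2, 77.7 and 80.3 in Exp2 (log2 fold change 1.44 ± 0.22, edgeR adjusted p = 1.06e-07). *Ftl1*, the ferritin light chain gene, had 4052, 5079 and 3982 normalized counts in Exp1 and 7613, 8774 and 7534 in Exp2 (log2 fold change 0.87 ± 0.086, edgeR adjusted p = 4.30e-15) and shares 68.6% of its 3′ end with pseudogenes.

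The stress programs did not rise as one. ATF4, which is translated when amino acids are short or the endoplasmic reticulum is stressed, has targets of amino acid synthesis and transport. Of 29 tested, 19 were higher and 1 lower (median 0.47), and with pool S3 alone 11 were higher. *Ddit3* (CHOP), a pro-apoptotic transcription factor gene, had 61, 35.5 and 64.4 normalized counts in Exp1 and 308, 208 and 256 in Exp2 (log2 fold change 2.25 ± 0.15, edgeR adjusted p = 1.47e-24). *Nupr1*, a stress-induced chromatin protein gene, had 298, 364 and 308 normalized counts in Exp1 and 954, 1009 and 869 in Exp2 (log2 fold change 1.54 ± 0.11, edgeR adjusted p = 3.28e-20). *Ddit4*, an inhibitor of mTORC1, had 133, 76.4 and 119 normalized counts in Exp1 and 259, 174 and 282 in Exp2 (log2 fold change 1.13 ± 0.15, edgeR adjusted p = 1.81e-09). tRNA synthetase genes are another class of ATF4 targets. *Sars*, the seryl-tRNA synthetase gene, had 338, 314 and 307 normalized counts in Exp1 and 508, 538 and 549.8 in Exp2 (log2 fold change 0.74 ± 0.11, edgeR adjusted p = 9.03e-09). Replicate 2 was the lowest library of both experiments for *Ddit3* and *Ddit4*, and the experiments did not overlap.

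Of 26 ER folding and unfolded protein response genes, in contrast, 3 were higher and 10 lower (median -0.18). The count of lower genes was 6 without replicate 1 of either experiment and 5 with pool S3 alone. *Sdf2l1*, an ER chaperone partner induced by ATF6, had 229, 237 and 231 normalized counts in Exp1 and 130.5, 132 and 140.3 in Exp2 (log2 fold change -0.79 ± 0.13, edgeR adjusted p = 4.08e-07). The co-chaperone gene *Dnajc3* had 318, 418 and 358 normalized counts in Exp1 and 262, 236 and 251 in Exp2 (log2 fold change -0.54 ± 0.11, edgeR adjusted p = 8.87e-05). *Hspa5* (BiP), the main ER chaperone gene, had 1328, 1445 and 1229 normalized counts in Exp1 and 1265, 1375 and 1311 in Exp2, with overlap (log2 fold change -0.018 ± 0.097, edgeR adjusted p = 0.919). Both partner genes passed the test and the main chaperone gene did not. *Xbp1*, the transcription factor gene of the pathway, had 488, 464 and 414 normalized counts in Exp1 and 601, 613 and 611 in Exp2 (log2 fold change 0.42 ± 0.098, edgeR adjusted p = 3.96e-04).

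Heat shock genes were higher in 4 of 23 cases and lower in 9 (median -0.41). The share higher was close to the 17.2% over all genes tested. *Dnaja1*, a cytosolic co-chaperone gene, had 292, 274 and 238 normalized counts in Exp1 and 184, 163 and 201 in Exp2 (log2 fold change -0.55 ± 0.12, edgeR adjusted p = 1.79e-04), with 21.1% of its 3′ end shared. *Hsp90aa1*, the inducible HSP90 gene, had 218, 268 and 203 normalized counts in Exp1 and 130.5, 224 and 123 in Exp2 (log2 fold change -0.54 ± 0.13, edgeR adjusted p = 7.33e-04), with overlap through Exp2 replicate 2, and shares 38.4% of its 3′ end with pseudogenes. *Dnajb4* was 1 of the higher members, with 23.7, 26.7 and 15.9 normalized counts in Exp1 and 82.2, 54 and 71.3 in Exp2 (log2 fold change 1.64 ± 0.24, edgeR adjusted p = 1.75e-08). The count of higher members was 1 without replicate 3 of either experiment and 2 without replicate 2 of either. *Hspa1a*, a strongly inducible HSP70 gene, had only 2.73, 0.889 and 0 normalized counts in Exp1 and 2.19, 9.71 and 3.39 in Exp2, with overlap (log2 fold change 2.02 ± 0.90, edgeR adjusted p = 0.0838). Its call was lost without Exp1 replicate 2 or 3 or Exp2 replicate 2 or 3 (edgeR adjusted p from 0.102 to 0.57), and in DESeq2.

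**Figure D4:**
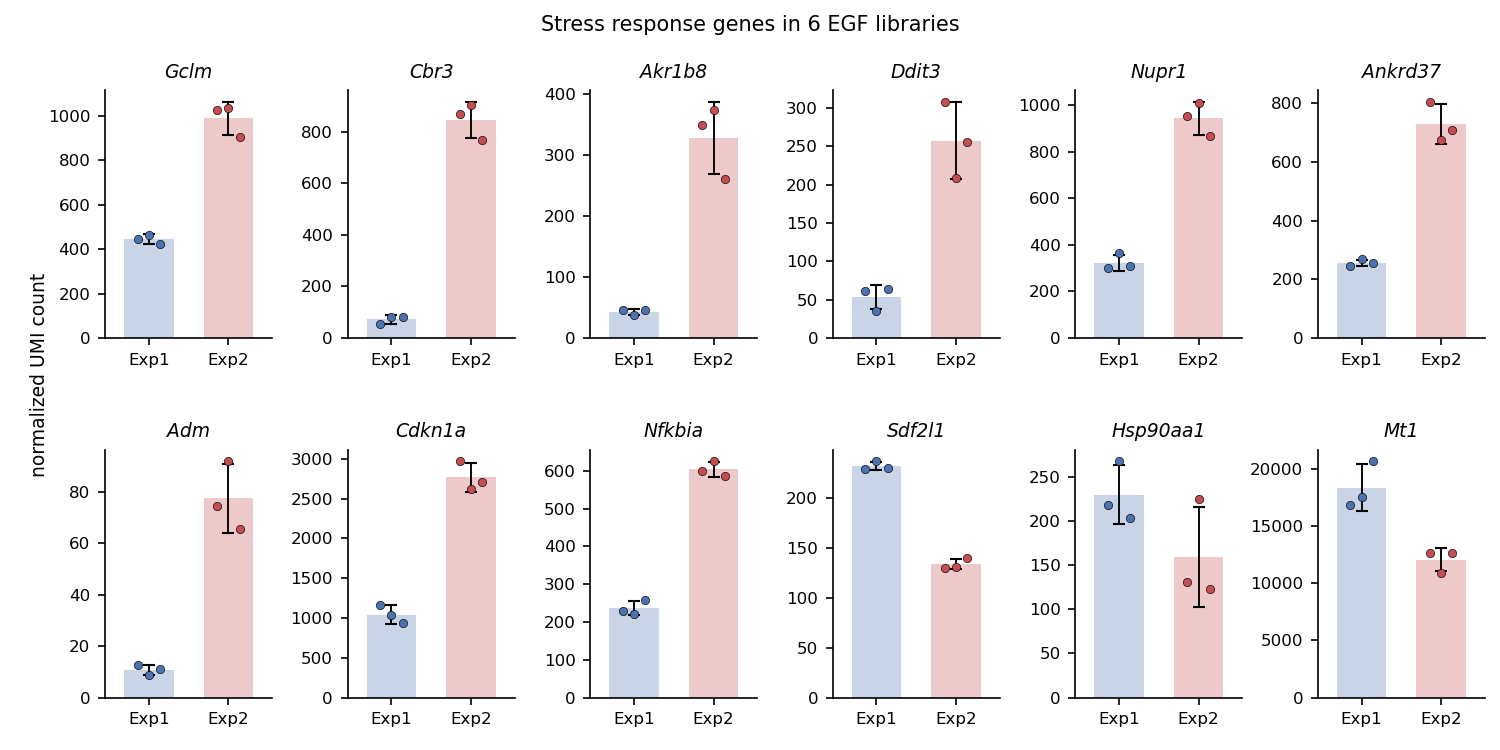
Normalized UMI counts (y axis, linear from 0) of genes of the NRF2, ATF4, hypoxia, p53, NF-kB, ER folding, heat shock and metal responses in EGF libraries of Exp1 (blue) and Exp2 (red); points are libraries, bars the mean and error bars the SD of 3 libraries. From *Gclm* to *Nfkbia* all Exp2 libraries lie above those of Exp1, *Sdf2l1* and *Mt1* lie below, and *Hsp90aa1* overlaps.

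Hypoxia and glycolysis genes were higher, with 20 of 31 called higher, 1 lower and a median of 0.67. *Adm*, which encodes adrenomedullin, had 12.7, 8.89 and 10.9 normalized counts in Exp1 and 74.6, 91.7 and 65.6 in Exp2 (log2 fold change 2.83 ± 0.28, edgeR adjusted p = 3.69e-14). *Ankrd37*, a gene induced by HIF1, had 245, 268 and 254 normalized counts in Exp1 and 805, 673 and 709 in Exp2 (log2 fold change 1.51 ± 0.10, edgeR adjusted p = 6.12e-24). *Gpi1* and *Pfkp* encode enzymes of early steps of glycolysis. *Gpi1* had 874, 778 and 788 normalized counts in Exp1 and 1655, 1733 and 1641 in Exp2 (log2 fold change 1.05 ± 0.095, edgeR adjusted p = 1.64e-16). *Pfkp* had 387, 275 and 272 normalized counts in Exp1 and 659, 604 and 710.4 in Exp2 (log2 fold change 1.09 ± 0.10, edgeR adjusted p = 7.58e-16). All 4 were higher in each library of Exp2.

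Among p53 targets 8 of 24 were higher, 2 lower and 14 did not pass (median 0.46). Without replicate 3 of either experiment, Exp1 replicate 2 or Exp2 replicate 1, 1 was lower. *Cdkn1a*, which encodes the cell cycle inhibitor p21, had 1163, 1032 and 935 normalized counts in Exp1 and 2969, 2623 and 2715 in Exp2 (log2 fold change 1.41 ± 0.12, edgeR adjusted p = 5.82e-11). *Pmaip1* (Noxa), a pro-apoptotic gene, had 56.4, 58.6 and 49.4 normalized counts in Exp1 and 172, 139 and 156 in Exp2 (log2 fold change 1.50 ± 0.19, edgeR adjusted p = 6.38e-09). *Gadd45a* had 34.6, 34.7 and 24.3 normalized counts in Exp1 and 92.1, 68 and 61.1 in Exp2 (log2 fold change 1.24 ± 0.21, edgeR adjusted p = 1.36e-06). All Exp2 libraries were higher for these 3 genes. *Perp*, a desmosome gene, had 350.3, 342 and 329.8 normalized counts in Exp1 and 586, 623 and 619.9 in Exp2 (log2 fold change 0.84 ± 0.10, edgeR adjusted p = 4.11e-11). *Pmaip1* and *Gadd45a* are also known as targets of ATF4. Of 17 cell death genes, 7 were higher and 1 lower. *Gsdmd*, the pore-forming gasdermin of pyroptosis, had 41.9, 34.7 and 52.7 normalized counts in Exp1 and 173, 163 and 139 in Exp2 (log2 fold change 1.87 ± 0.17, edgeR adjusted p = 2.31e-16). The initiator caspase gene *Casp8* had 79.2, 40.9 and 63.6 normalized counts in Exp1 and 134, 106 and 132 in Exp2 (log2 fold change 1.03 ± 0.18, edgeR adjusted p = 1.27e-06).

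Genes of inflammation and of antigen presentation were higher in part. Of 28 NF-kB and inflammatory genes, 11 were higher and 3 lower (median 0.63). *Nfkbia*, the inhibitor gene that NF-kB itself induces, had 229, 222 and 257 normalized counts in Exp1 and 599.8, 625 and 586 in Exp2 (log2 fold change 1.35 ± 0.11, edgeR adjusted p = 4.98e-19). The chemokine gene *Cxcl16* had 36.4, 28.4 and 33.5 normalized counts in Exp1 and 74.6, 74.5 and 89.4 in Exp2 (log2 fold change 1.27 ± 0.21, edgeR adjusted p = 5.90e-07). *Pigr*, the receptor that carries immunoglobulin A across the epithelium, had 1865, 2023 and 1908 normalized counts in Exp1 and 2712, 2908 and 2826 in Exp2 (log2 fold change 0.54 ± 0.088, edgeR adjusted p = 3.30e-07). Of 28 interferon and MHC class I genes tested, 12 were higher and 0 lower (median 0.69), and with pool S3 alone 7 were higher. *B2m*, the light chain gene of MHC class I, had 1785, 1716 and 1680 normalized counts in Exp1 and 2723, 2772 and 2556 in Exp2 (log2 fold change 0.64 ± 0.088, edgeR adjusted p = 3.65e-09). The interferon-induced gene *Ifi27* had 29.1, 15.1 and 25.1 normalized counts in Exp1 and 59.2, 69.1 and 65.6 in Exp2 (log2 fold change 1.49 ± 0.25, edgeR adjusted p = 8.32e-07). *Ifit1*, another, had 0, 1.78 and 0 normalized counts in Exp1 and 13.2, 16.2 and 11.3 in Exp2 (edgeR adjusted p = 2.43e-06), which is 2 UMIs against 37 (ratio 21.7, 95% exact interval 5.61 to 186 for counting error only). All 3 of these genes were higher in Exp2. Both MHC class II genes tested were higher. *H2-Ab1*, which the gut epithelium can express, had 22.8, 11.6 and 22.6 normalized counts in Exp1 and 55.9, 78.8 and 74.7 in Exp2 (log2 fold change 1.88 ± 0.26, edgeR adjusted p = 6.38e-09). *H2-DMa*, which helps to load peptides, had 9.1, 9.78 and 16.7 normalized counts in Exp1 and 24.1, 23.7 and 31.7 in Exp2 (log2 fold change 1.14 ± 0.35, edgeR adjusted p = 0.00823).

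Genes of sterol and fatty acid synthesis, the targets of SREBP, were lower in 16 of 30 cases and higher in 4 (median -0.35), or 2 without replicate 1 of either experiment. *Mvk*, the mevalonate kinase gene, had 181, 154 and 169 normalized counts in Exp1 and 77.8, 97.1 and 92.8 in Exp2 (log2 fold change -0.91 ± 0.15, edgeR adjusted p = 6.58e-07). *Acly*, the enzyme that makes cytosolic acetyl-CoA, had 181, 179 and 157 normalized counts in Exp1 and 91, 88.5 and 115 in Exp2 (log2 fold change -0.81 ± 0.15, edgeR adjusted p = 4.16e-06). *Scd1*, a fatty acid desaturase gene, had 190.2, 154 and 186 normalized counts in Exp1 and 117, 89.6 and 81.5 in Exp2 (log2 fold change -0.88 ± 0.15, edgeR adjusted p = 1.10e-06) and shares 10.8% of its 3′ end with other desaturase genes. Each was lower in all libraries of Exp2.

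Clock genes were in part higher. Of 18 tested, 8 were higher and 1 lower (median 0.81). The count of higher genes was 4 without Exp1 replicate 1 or Exp2 replicate 2, and 5 without Exp2 replicate 3. *Bhlhe40*, a repressor gene of the clock that hypoxia also induces, had 74.6, 60.4 and 56.1 normalized counts in Exp1 and 126, 167 and 157 in Exp2 (log2 fold change 1.25 ± 0.16, edgeR adjusted p = 3.01e-10). *Cry1*, the cryptochrome gene, had 46.4, 36.4 and 46 normalized counts in Exp1 and 94.3, 127 and 109 in Exp2 (log2 fold change 1.35 ± 0.21, edgeR adjusted p = 8.99e-08). Neither gene overlapped between the experiments.

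Most RNAs encoded in mitochondria were lower in Exp2, and part of the nuclear genes of the respiratory chain were higher. Of 43 nuclear genes 16 were higher and 4 lower (median 0.098), 10 higher with pool S3 alone, and 8 lower with library totals as the only scaling. *Ndufa6*, a subunit of complex I, had 1715, 1643 and 1947 normalized counts in Exp1 and 3250, 2835 and 3185 in Exp2 (log2 fold change 0.80 ± 0.089, edgeR adjusted p = 7.64e-13). *Ndufa4*, in contrast, had 1802, 2295 and 2215 normalized counts in Exp1 and 1484, 1427 and 1351 in Exp2 (log2 fold change -0.56 ± 0.094, edgeR adjusted p = 9.42e-07). Of 10 mitochondrial RNAs, 7 were lower and 1 higher (median -0.83). *mt-Nd1* and *mt-Nd4* encode subunits of complex I. *mt-Nd1* had 7872, 8678 and 6964 normalized counts in Exp1 and 4172, 4052 and 4087 in Exp2 (log2 fold change -0.93 ± 0.087, edgeR adjusted p = 5.29e-16). *mt-Nd4* had 2672, 2597 and 2478 normalized counts in Exp1 and 1515, 1488 and 1519 in Exp2 (log2 fold change -0.78 ± 0.09, edgeR adjusted p = 4.25e-12). *mt-Co1*, a subunit of complex IV, was the 1 higher member, with 310.3, 281 and 245 normalized counts in Exp1 and 532, 594 and 526 in Exp2 (log2 fold change 0.98 ± 0.11, edgeR adjusted p = 1.69e-13), but 95.2% of its 3′ end is also found in nuclear copies, so that this count is uncertain. Of 41 ribosomal protein genes 18 were higher and 1 lower (median 0.20), 5 higher with pool S3 alone and 9 with library totals. *Rpl8* had 7600, 6735 and 7370 normalized counts in Exp1 and 10660, 11620 and 10770 in Exp2 (log2 fold change 0.61 ± 0.082, edgeR adjusted p = 1.50e-09). Noncoding RNAs were not alike. *Malat1* had 631, 449.7 and 470.4 normalized counts in Exp1 and 1422, 1325 and 1302 in Exp2 (log2 fold change 1.39 ± 0.11, edgeR adjusted p = 4.21e-13). *Neat1* had 10, 8 and 5.02 normalized counts in Exp1 and 36.2, 46.4 and 49.8 in Exp2 (log2 fold change 2.52 ± 0.33, edgeR adjusted p = 3.69e-10). *Gm26917*, annotated as a long intergenic noncoding RNA, was lower, with 459, 525 and 496 normalized counts in Exp1 and 232, 258 and 256 in Exp2 (log2 fold change -0.99 ± 0.12, edgeR adjusted p = 6.74e-11). Which RNA its counts stand for, and whether it is nuclear, was not tested.

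Markers of cells other than epithelium were close to 0 in both groups. Of 21 fibroblast genes 8 had no UMI in Exp1 and 6 in Exp2, with *Pdgfra* at 0 in both, and their summed level was 20.1 to 28.0 CPM in Exp1 and 26.0 to 31.0 in Exp2. Of 26 immune cell genes 17 and 22 had no UMI, *Cd3e* and *Cd79a* in both, and the sums were 2.12 to 7.00 and 6.05 to 8.46. The 1 member called was *Itgam*, an integrin gene, with 2 UMIs in Exp1 and 16 in Exp2. This is a ratio of 9.40 (95% exact interval 2.21 to 84.3 for counting error only), and 28.5% of its 3′ end is shared with another gene. Of 14 genes of endothelium, nerve and glia 7 had no UMI in each, *Cdh5* in both, and the sums were 13.3 to 21.6 and 26.5 to 34.5, without overlap. *Lyve1*, a lymphatic endothelial gene, gave most of this, with 22.8, 8 and 20.1 normalized counts in Exp1 and 48.2, 43.2 and 45.2 in Exp2 (log2 fold change 1.43 ± 0.28, edgeR adjusted p = 1.60e-05). Of 23 genes of stomach and pancreas 14 and 13 had no UMI, and the sums were 87.5 to 94.1 and 143 to 168 CPM, without overlap. *Cela1* led them in Exp1, with 169 UMIs, and *Sycn*, a gene of zymogen granules, in Exp2, with 333. *Sycn* had 33.7, 49.8 and 44.4 normalized counts in Exp1 and 128, 136 and 102 in Exp2 (log2 fold change 1.51 ± 0.19, edgeR adjusted p = 1.27e-10). The colon list of 14 genes summed to 1190 to 1364 and 1662 to 1828 CPM and was led by *Ang4*, which Paneth cells also express. The part of these genes in the other results was not tested.

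The comparison of Exp2 with Exp1 was repeated in the EREG and in the NRG1 libraries of the same fit, which share no library with the EGF comparison but come from the same 2 mice and days. With EREG 4038 genes differed (34.2%) and with NRG1 3902 (33.1%). Of the 2027 genes higher with EGF, 1367 were higher with EREG, which is 67.4% of the EGF and 66.7% of the EREG calls, and 1321 were higher with NRG1 (65.2% and 66.0%). Of the 1940 lower genes 1235 were lower with EREG (63.7% and 62.2%) and 1157 with NRG1 (59.6% and 60.9%). *Olfm4* had a log2 fold change of -2.21 with EGF, -1.78 with EREG and -1.92 with NRG1. For *Ly6a* the 3 values were 1.96, 1.62 and 2.05. For *Cbr3* they were 3.55, 3.80 and 3.16. All 3 genes passed in the same direction with each ligand. For *Ddit3* the values were 2.25, 2.27 and 1.64, and each passed as well. The ATF4 list as a whole did not repeat with NRG1. Of its 29 genes, 19 were higher and 1 lower with EGF, 14 and 2 with EREG and 9 and 9 with NRG1 (medians 0.47, 0.32 and -0.097). For 11 of the 29 the difference between the experiments had another size with NRG1 than with EGF, against 1.48% of all genes tested. Of the 10 mitochondrial RNAs, 7 were lower with EGF, 4 with EREG and 2 with NRG1 (medians -0.83, -0.23 and 0.10), and 6 had another size with NRG1 than with EGF. The median of the p53 targets was 0.46 with EGF, 0.65 with EREG and -0.017 with NRG1, with no member called different between the ligands. The medians of the colon and fibroblast lists also changed sign with another ligand.

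The difference between the experiments had another size with NRG1 than with EGF for 175 genes (1.48%), with 91 in a fit without the replicate number. Without Exp1 replicate 2 these were 110 genes, without Exp2 replicate 2 101 and without Exp2 replicate 3 104. With EREG it had another size than with EGF for 8 genes (0.0678%). In edgeR without Exp2 replicate 2 these were 0, with 796 at an unadjusted p under 0.05, and they were 3, 5 and 2 without Exp1 replicate 1, Exp1 replicate 3 and Exp2 replicate 1. *Areg* rose by 2.67 with EGF, 2.83 with EREG and 1.78 with NRG1 on the log2 scale. The NRG1 value minus the EGF value was -0.88 (edgeR adjusted p = 0.0202). Its mean was 139 normalized counts in Exp1 and 885 in Exp2 with EGF, and 536 and 1794 with NRG1. *Clu* had a log2 fold change of -2.00 with EGF, -1.67 with EREG and -0.16 with NRG1 (NRG1 minus EGF 1.84, edgeR adjusted p = 0.0438). The mean of *Clu* was 42.7 normalized counts in Exp1 and 10.6 in Exp2 with EGF, and 13.6 and 12.2 with NRG1. With NRG1 it was thus already low in Exp1. *Malat1* was higher by 1.39, 1.44 and 2.63 (NRG1 minus EGF 1.24, edgeR adjusted p = 4.88e-06).

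**Figure D5:**
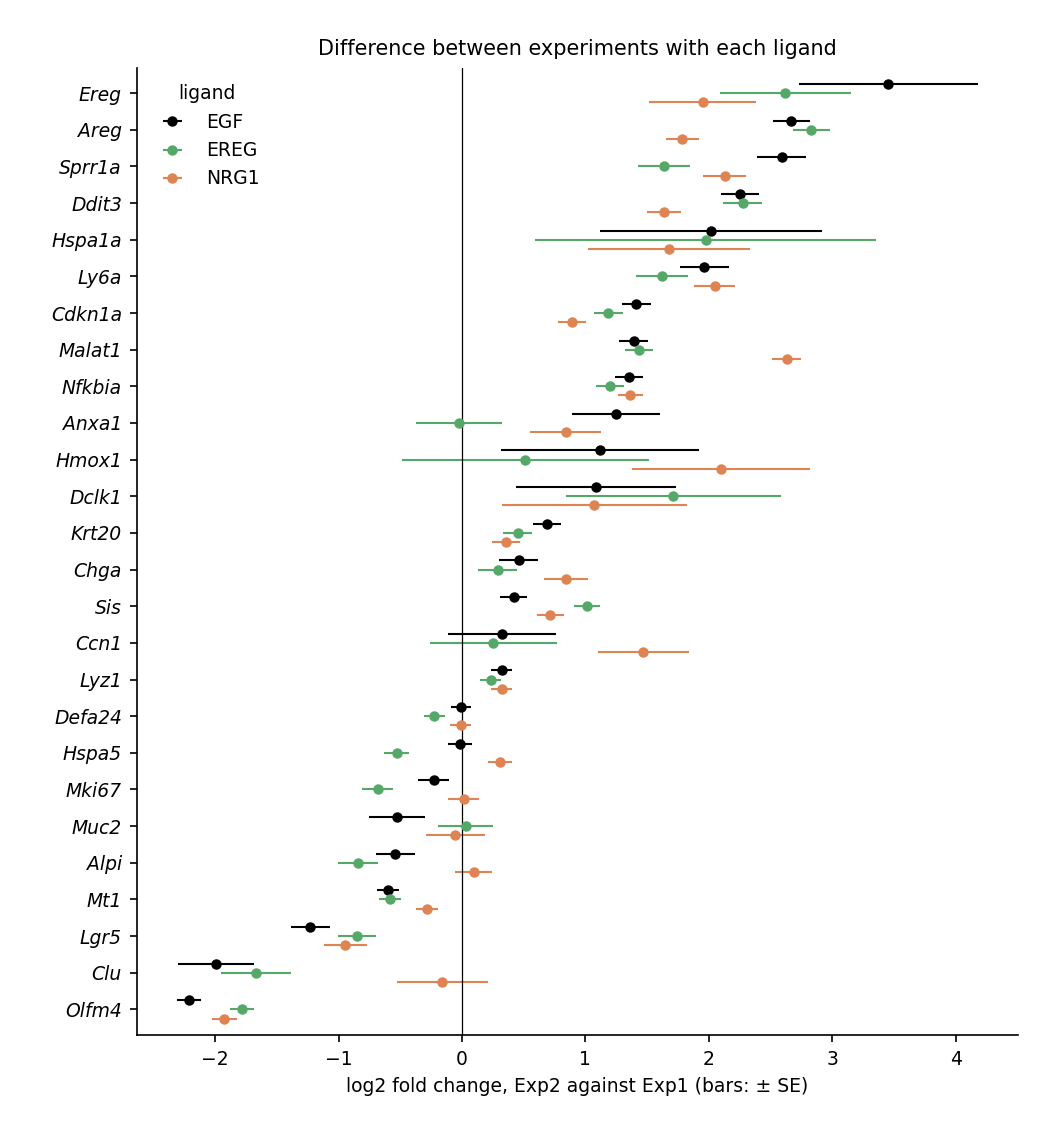
Log2 fold change of Exp2 over Exp1 (x axis) for the 26 defining genes, fitted in the libraries with EGF (black), EREG (green) and NRG1 (orange); points are estimates from 3 libraries an experiment and bars ± SE. *Ereg*, *Areg* and *Sprr1a* lie far to the right and *Olfm4* and *Lgr5* to the left with each ligand, while *Clu* is near 0 with NRG1 and to the left with EGF and EREG.

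The experiment difference can be set beside the difference between ligands, here NRG1 against EREG over both experiments, a comparison that uses no EGF library and was added after the data were seen. It called 1618 genes (13.7%), 915 higher with NRG1 (7.76%) and 703 lower (5.96%). Of the 2027 genes higher in Exp2 with EGF, 591 were also higher with NRG1 against EREG, which is 29.2% of the first and 64.6% of the second list, and 65 were lower. Of the 1940 lower in Exp2, 342 were lower with NRG1 (17.6% and 48.7%) and 25 higher. In the stem cell list 11 of 22 genes were lower with NRG1 and 1 higher, and in the regenerative list 26 of 32 were higher and 2 lower. *Olfm4* had a log2 fold change of -2.21 between the experiments with EGF and of -0.58 between the ligands. *Areg* had 2.67 and 1.48. *Sprr1a* had 2.59 and 1.40. *Gclm* had 1.15 and 0.52, and all 4 passed in both comparisons. For these 4 genes the EGF experiment difference was the larger in size, a comparison of estimates that was not tested. *Zg16*, at 1.92 between the experiments, had 0.029 between the ligands and did not pass there. *Ces1d* had 3.34 and -1.68, both called and in opposite directions.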

How the data were processed

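RNA was measured with a 3′ method in which an oligo-dT primer adds a library barcode and a UMI. The authors mapped reads to GRCm38 with STAR (version 2.7.8a) and deposited raw UMI counts, 1 column a library; no source used here gives the annotation release. A deposited sheet listed ligand, experiment, replicate and pool. Gene symbols were taken from GENCODE (30934 of 31053 genes matched). X and Y genes (1821), the 119 unmatched genes and a reporter row (2.05e-05% of counts) were left out. In R 4.3.3, genes reaching 5 counts in total and 1 normalized count on average were tested with edgeR 4.0.16 (TMM, robust quasi-likelihood, 10 residual degrees of freedom), which was first tested on simulated data. The model had 6 means, of ligand by experiment, and the replicate number, as the study's own design has. DESeq2 1.42.0, other scalings, filters and terms, pool S3 alone and leaving out each EGF library were alternatives. Genes were named by rule: the 15 largest rises and falls, up to 4 per list by adjusted p, and 26 defining genes; 5 genes that the rule takes are not reported here, but stay in the fit and in the counts of lists. The libraries and all 42 lists were chosen with earlier results of these data known. No replicate pair was 1 library counted again (chi-square per degree of freedom 1.52 to 2.79). With 1486253 to 1891243 UMIs a library, counting error limits the genes of few UMIs.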

Additional observations from a re-analysis of the deposited data

Results flagged for a closer look

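For 25 named genes the difference between the experiments had another size with NRG1 or EREG than with EGF (edgeR interaction test, adjusted p under 0.1 over all genes); the values are the log2 fold change with the other ligand minus that with EGF. The rise was smaller in NRG1 libraries for *Agr2* (-0.56), *Ang4* (-0.62), *Ankrd37* (-0.89), *Anxa2* (-0.43), *Areg* (-0.88), *Ddit4* (-0.75), *Egr1* (-0.92), *Ier3* (-1.15), *Ndufa4l2* (-1.79), *Nupr1* (-0.54) and *Pfkp* (-0.65). *Ang4*, with a log2 fold change of 0.57 with EGF, had -0.052 with NRG1. *Areg* was already higher with NRG1 in Exp1, with a mean of 536 normalized counts against 139 with EGF. The rise was larger for *Ces1f* (0.80), *Gclm* (0.76), *Gstm1* (0.89), *Malat1* (1.24), *Sfn* (0.68) and *mt-Co1* (0.53).

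Among genes lower in Exp2 with EGF, the fall was smaller with NRG1 for *Clu* (1.84), *Sox9* (0.75), *mt-Nd1* (0.54), *mt-Nd2* (0.76, with 15.7% of its 3′ end shared with a pseudogene) and *mt-Nd4* (0.76), and larger for *Mmp7* (-0.51) and *Tfrc* (-0.94). *Clu* was already low with NRG1 in Exp1, with a mean of 13.6 normalized counts against 42.7 with EGF. With EREG the fall was smaller for *Gm26917* (0.81), *mt-Nd1* (0.52) and *mt-Nd2* (0.61). Mitochondrial RNAs took 0.847 to 1.02% of UMIs in the EREG libraries of Exp1 and 0.637 to 0.799% in those of Exp2, and 0.600 to 0.732% and 0.565 to 0.578% in the NRG1 libraries. Their part in these differences was not tested.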

How the results depend on the processing

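Of 190 named genes 172 were called. Of these, 161 had an adjusted p in all 19 alternatives, and 157 of them were called in each. The other 11 had none under a stricter filter or in DESeq2, and 6 of them were called wherever they were tested. For EGF, leaving out 1 library gave 3111 to 3443 genes, and DESeq2 3166, with 686 adjusted p-values not given. With pool S3 alone 2423 genes passed for EGF (1309 higher, 1114 lower), 2522 for EREG, 2509 for NRG1, 635 for NRG1 against EREG, 16 for NRG1 minus EGF and 0 for EREG minus EGF (599 at an unadjusted p under 0.05); this fit has fewer libraries. With a mean of at least 10 counts, 895 genes changed by at least 1, from fewer genes tested. At an adjusted p under 0.05, NRG1 minus EGF gave 115 genes. With no filter, EREG minus EGF gave 47. Leaving out 1 library gave 101 to 151 genes for NRG1 minus EGF and 0 to 8 for EREG minus EGF. The cause was not tested. The 1 lower gene of the EGF family, enteroendocrine and hypoxia lists was no longer called in 4, 3 and 3 of the 6 fits that leave out a library. *Gkn1*, a stomach gene seen among EGF libraries only in Exp2 replicate 1, had a log2 fold change from -0.49 (without that library) to 5.72 as libraries were left out.

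The replicate number stands in the model because the study's design has it. Deviations of same-numbered EGF libraries correlated at 0.032, 0.20 and 0.066, and those with different numbers at -0.12 to 0.072. Libraries with the number 2 share sequencing pool S4 and the others pool S3, and nothing else is said to join a number. With the pool in place of the number 3949 genes passed for EGF. Without the replicate block 3750 genes passed for EGF, against 3967, with 91 for NRG1 minus EGF and 0 for EREG minus EGF (750 at an unadjusted p under 0.05).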
